A study of Mus musculus with 6 samples.

Results

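Glycolysis turns glucose into pyruvate, and the pentose phosphate pathway branches from its first intermediate to make NADPH and ribose for nucleotides. The 34 genes described here encode glucose transporters, the enzymes of both pathways, the enzymes and carriers that handle pyruvate and lactate, and 3 regulators. They were taken by symbol from a list, not by a threshold on measured values. Of the 34 symbols, 31 were matched in the platform's gene table, and 30 of these passed a filter on low signals and were tested among 10916 genes. Gpi1, Eno1 and G6pdx were not analysed here. Aldoc, the aldolase isoform typical of brain, stayed under the filter. For each gene the probe set with the highest mean log2 signal over all 6 arrays was used. Gapdh was read from the array's own control probe sets, the ones with Gapdh as their single symbol.

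Activated T cells take up more glucose and send much of the pyruvate to lactate even when oxygen is present. Myc, the kinase mTOR and the oxygen-sensitive factor HIF-1 promote the transcription or use of glycolytic enzymes in such cells. Treg, the Foxp3-expressing regulatory subset of CD4 T cells, are known to rely more on lipid and mitochondrial oxidation than conventional effector T cells, and use glycolysis when they divide or migrate.

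Treg from the mesenteric lymph nodes of 4 to 6 week old mice were sorted and measured on 6 one-colour Affymetrix mouse arrays, 3 per group. The first group, iTreg, holds CD4+ Foxp3 GFP+ cells, gated as Nrp-, of TBmc mice on the Balb/c background after ovalbumin at 1% by mouth for 1 week. All T cells of a TBmc mouse share one receptor for ovalbumin and its B cells share another. These mice lack the recombinase that makes other receptors and are known for having no naturally arising Treg. The second group, WT Treg, holds CD4+ Foxp3+ cells of wild-type Balb/c mice with the Foxp3 GFP reporter, for which the labels give no feeding. The design gives the reporter for both groups. Genotype, receptor, feeding and gate differ together, so their parts cannot be told apart. The labels do not say whether arrays came from separate mice, so the p-values reflect array-to-array spread alone, and some of it may be technical. In sorted but bulk RNA, fewer cells of a kind and less RNA per cell cannot be told apart.

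For 2 arrays one label is at odds with the title that set the group. The cell type given for WT replicate 1 is the Nrp- one, and the strain given for iTreg replicate 1 names neither TBmc nor the reporter. The array of WT replicate 3 stood apart for the genes described here, and its part is given with the results. Median signals per array ran from 21.1 to 32.3, lowest in WT replicate 3, after the authors' scaling of every array to one trimmed mean. None of the 7 T cell and Treg markers was at control level on all arrays, and they summed to signals of 15558 to 18458 in iTreg and 17633 to 24323 in WT Treg. Il2ra, the high-affinity IL-2 receptor chain, had 1169, 2191 and 2256 in iTreg against 3537, 4656 and 5859.7 in WT Treg, lower without overlap at -1.35 (limma unadjusted p = 0.0012, adjusted p = 0.229). Foxp3 was dim, with signals of 31.7, 54.6 and 15.6 in iTreg against 26.2, 45.7 and 9.16 in WT Treg, where unspiked control probe sets reached 28.5. The 4 measured B cell markers summed to at most 127, the 4 stromal markers to at most 74.3 and the 2 measured erythroid markers to at most 86.6. Outside these lists, and chosen after their values were seen, the globin gene Hba-a2 differed by -1.40 (limma unadjusted p = 0.00936, adjusted p = 0.501) at a mean log2 signal of 10.80, and the immunoglobulin gene Ighm by 0.97 (limma unadjusted p = 0.0323, adjusted p = 0.622) at 9.25, both with overlapping groups. Of the 8 myeloid markers Cd14 and Itgax stayed at control level on every array. Cd74, the invariant chain of antigen-presenting cells, had signals of 124, 140.0 and 144 in iTreg against 56.0, 19.8 and 16.5 in WT Treg. Lyz2, the lysozyme of myeloid cells, was also higher without overlap, with 44.6, 44.2 and 23.1 against 21.9, 9.01 and 8.79, while H2-Aa differed by 0.09. Cst3, the protease inhibitor cystatin C, had 412, 571 and 321 against 579, 551 and 1091, a difference of -0.71, and makes up most of the myeloid sum. That sum ran from 553 to 797 in iTreg and from 629 to 1175 in WT Treg, and that of the 3 CD8 and NK markers from 103 to 231 and from 75.8 to 109.5. Their part in the results below was not tested.

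The lowest values in iTreg relative to WT Treg were those of Tpi1, an enzyme of the middle of glycolysis, the transcription factor Myc, the kinase Pdk1, the transaldolase Taldo1, Eno3 and the lactate dehydrogenase subunit Ldhb, with differences from -1.09 to -0.76 on the log2 scale. For Pdk1 the other probe sets above the filter gave 0.31, -0.10 and -0.08. The transporter Slc2a1, the enzymes Pfkp, Gapdh, Pkm and Ldha and the regulators Hif1a and Mtor differed by at most 0.14 in either direction. Pdk2 and Pgd had the largest positive differences, 0.62 and 0.59. None of the 30 genes passed the test between iTreg and WT Treg, where 0.0275% of all genes tested did (limma, adjusted p under 0.05 over 10916 genes). At an unadjusted p under 0.05, 4 of the 30 were lower in iTreg, against 4.58% of all genes tested, and 0 were higher, against 3% of all genes. The 4 were Myc, Ldhb, Tpi1 and Eno3. Groups that did not overlap were seen for 3 of the 30, Myc, Ldhb and Taldo1, all lower in iTreg, against 7.78% of all genes tested with lower and 5.1% with higher values in this sense. The median difference of the 30 was -0.20 and 21 were negative, 70% against 52.8% of all genes tested, whose median was -0.03.

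**Figure D1:**
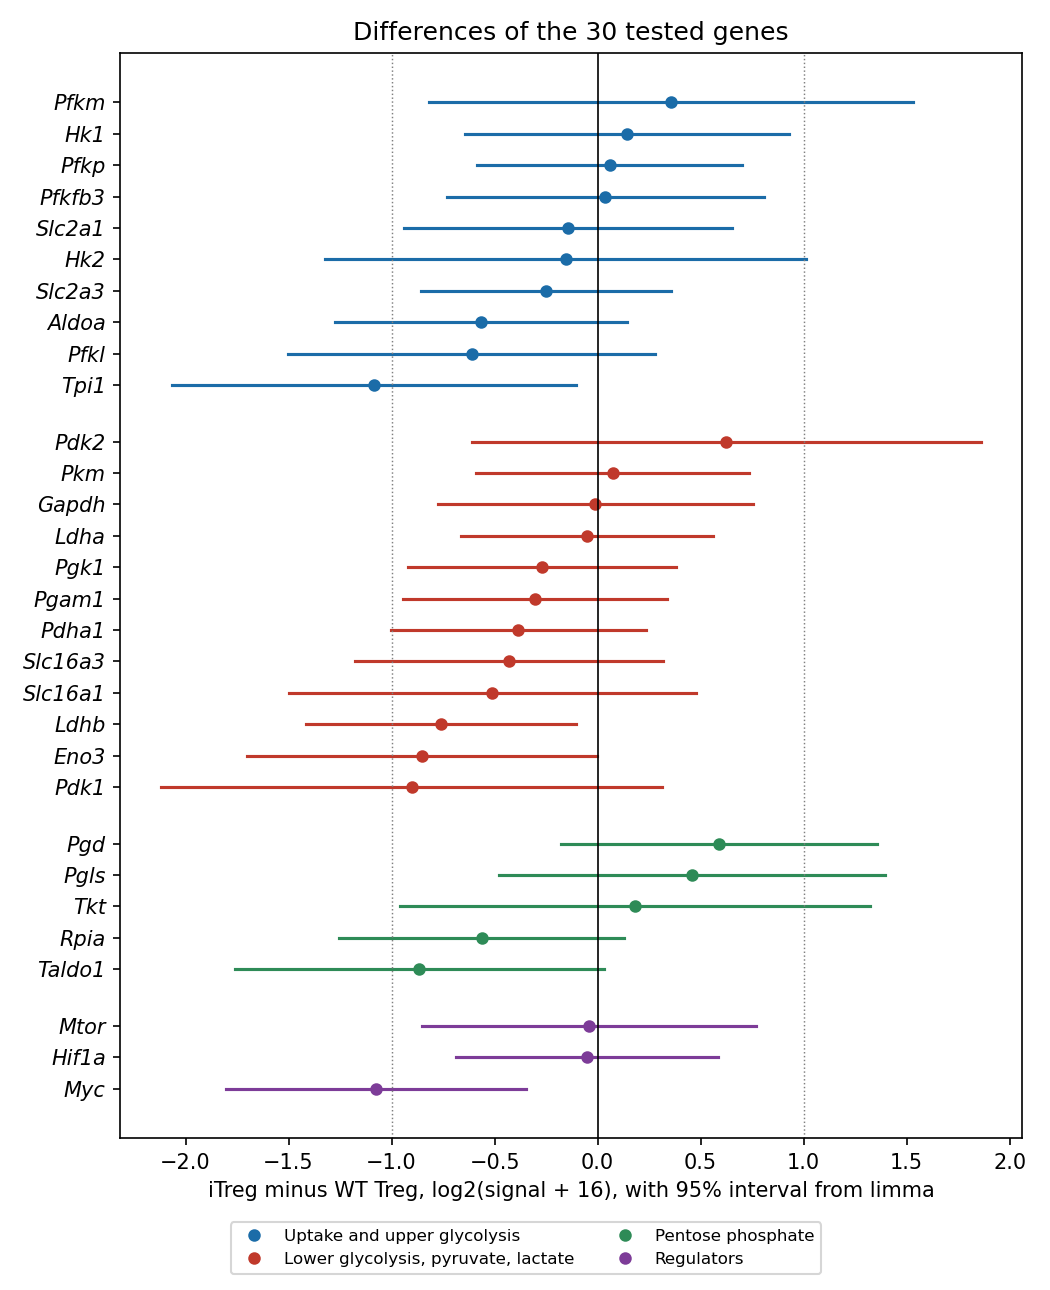
Difference between iTreg and WT Treg for each of the 30 tested genes on the log2(signal + 16) scale (x axis), by pathway part, with points for the estimate and lines for the 95% interval from limma with 3 arrays per group; dotted lines mark 1 log2 unit. The intervals of Tpi1, Ldhb, Eno3 and Myc lie below 0, and 12 genes have intervals inside the dotted lines.

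The lean to negative values varied with the arrays used and with the probe sets and genes kept. Without WT replicate 3 the median of the 30 was -0.03, with 53.3% negative, against a median of -0.06 and 55% negative over all genes. With both replicate 3 arrays left out it was -0.17, with 76.7% negative against 53.6% of all genes. With specific probe sets only, those without a suffix for several transcripts or genes in their names, the median of the listed genes and that of all genes were both -0.04. The shares that were negative were 61.9% and 53.9%. In that setting Hk1, Aldoa, Tpi1, Pgam1, Ldha, Ldhb, Pgd, Taldo1 and Myc had no such probe set and were left out. Its median thus covers fewer of the listed genes, without several of the lowest. WT replicate 3 held the highest of the 6 signals for 14 of the 30 genes, or 46.7%, where it did so for 20.7% of all genes tested. After quantile normalization the count was again 14 of 30, against 23.5% of all genes. Without the 2 arrays with label doubts, the median of the 30 was -0.31, and 2 genes were lower at an unadjusted p under 0.05, against 3% of all genes in that fit. The count was also 2 without WT replicate 3, against 3.22% of all genes, and without iTreg replicate 3, against 3.78%. The mean log2 signal of the 30 genes over iTreg replicates 1, 2 and 3 was 8.85, 8.54 and 9.00, against 8.84, 8.97 and 9.32 over those of WT Treg. The highest iTreg mean thus lay above WT replicates 1 and 2, and iTreg replicate 2 was the lowest of all. That array held the lowest signal for 12 of the 30 genes, or 40%, against 14.1% of all genes tested. The spread between arrays of a group had a median SD of 0.46 log2 units over the 30 genes and of 0.44 over all genes tested.

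**Figure D2:**
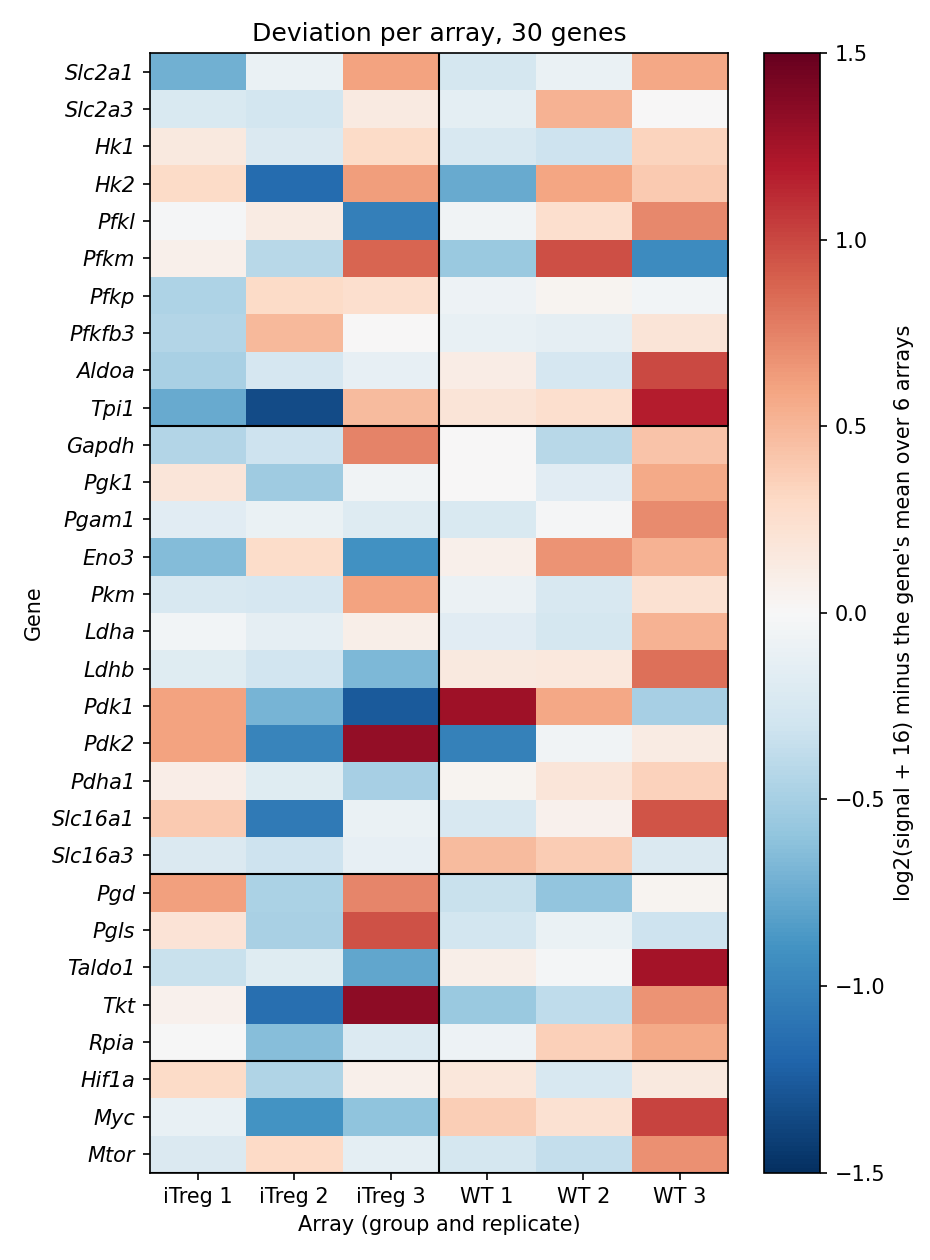
Deviation of each of the 30 genes (rows, ordered by pathway part, black lines between parts) from its own mean over the 6 arrays on the log2(signal + 16) scale, one column per array, red for higher and blue for lower. The column of WT replicate 3 is red for most genes, and 14 of the 30 have their highest signal there.

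For 12 of the 30 genes the 95% interval of the difference lay within 1 log2 unit on either side of 0, that is, within a 2-fold change on this scale. The 12 were Slc2a1, Slc2a3, Hk1, Pfkp, Pfkfb3, Gapdh, Pgk1, Pgam1, Pkm, Ldha, Hif1a and Mtor. Each interval is that of the probe set used, and another probe set of Slc2a3 differed by -1.03. Over all genes tested the share was 33%. For the other 18 a change of that size was within or at the edge of the interval. A p that misses the threshold does not show that values were alike, and these intervals give the bounds that 3 arrays per group allow. Of the 17 genes with more than 1 probe set above the filter, 9 had probe sets that differed in sign: Hif1a, Hk1, Mtor, Pdk1, Pfkl, Pfkp, Pgd, Slc2a1 and Tkt.

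Glucose uptake and upper glycolysis, from the cell surface to triose phosphate, held 10 tested genes with a median difference of -0.15. Of these 6 were negative and 4 positive. Slc2a1 encodes GLUT1, the main glucose transporter of activated T cells. Its signals were 534, 826 and 1354 in iTreg against 739, 824 and 1330.2 in WT Treg. Both groups covered nearly the same range, and the difference was -0.14 (95% interval -0.94 to 0.65). Its other probe sets differed by 0.03 and -0.27. Slc2a3, the high-affinity transporter GLUT3, had signals of 1329, 1285 and 1725 in iTreg against 1413, 2251 and 1565 in WT Treg. WT replicate 2 alone was above every iTreg array, and the difference was -0.25 (95% interval -0.86 to 0.36). Its other probe sets above the filter differed by -0.47, -0.04 and -1.03.

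Hexokinase traps glucose in the cell as glucose 6-phosphate. The isoform Hk1 had signals of 203, 155 and 225 in iTreg against 152, 143 and 234 in WT Treg, a difference of 0.14, while its other probe set above the filter gave -0.31. The inducible isoform Hk2 scattered in both groups, with 84.7, 21.1 and 111 against 32.8, 108 and 92.0, a difference of -0.16 with a wide interval from -1.32 to 1.01. Of the phosphofructokinase subunits, which carry the committed step of glycolysis, the platelet type Pfkp differed by 0.06 (95% interval -0.59 to 0.70). Other probe sets of Pfkp gave 0.32 and -0.69. The muscle type Pfkm had 99.8, 66.3 and 184 in iTreg against 58.2, 199 and 41.1 in WT Treg and differed by 0.35 (95% interval -0.82 to 1.53). For the liver type Pfkl the signals were 189.9, 210.5 and 86.1 in iTreg against 184, 231 and 327 in WT Treg. Its difference of -0.61 (standard error 0.41, limma adjusted p = 0.774) was -0.24 and 0.08 on its other probe sets above the filter. Pfkfb3, which makes the phosphofructokinase activator fructose 2,6-bisphosphate, differed by 0.04 (95% interval -0.73 to 0.81).

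The steps from fructose bisphosphate to triose phosphate gave the largest differences among the upper enzymes besides Pfkl. Aldoa, the aldolase of most tissues, had signals of 1387, 1638 and 1793 in iTreg against 2106, 1637 and 3880.5 in WT Treg. WT replicate 2 lay within the iTreg range and WT replicate 3 far above it. The difference was -0.57 (standard error 0.33, limma adjusted p = 0.721), from -0.68 to -0.32 on its other 4 probe sets, and -0.22 without WT replicate 3. All Aldoa probe sets have a suffix for several transcripts or genes, so they may not be separate readings. Tpi1, triose phosphate isomerase, had the largest difference of all 30 in size. Its signals were 277, 179 and 672 in iTreg against 549.8, 575 and 1107 in WT Treg, with means of 376 ± 261 and 744 ± 315 (SD, n = 3). iTreg replicates 1 and 2 were below every WT array, while iTreg replicate 3 lay above WT replicates 1 and 2. The difference was -1.09 with a standard error of 0.45 (limma unadjusted p = 0.033, adjusted p = 0.622). It was -0.80 and -0.48 on its other probe sets, and leaving out single arrays moved it between -1.59 and -0.68. Without WT replicate 3 its unadjusted p was 0.147 (limma). The Tpi1 probe sets also all have a suffix for several transcripts or genes. Aldoc, outside the test, read 12.1, 4.89 and 6.79 in iTreg against 13.6, 18.9 and 21.6 in WT Treg, all below the top of the unspiked controls.

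**Figure D3:**
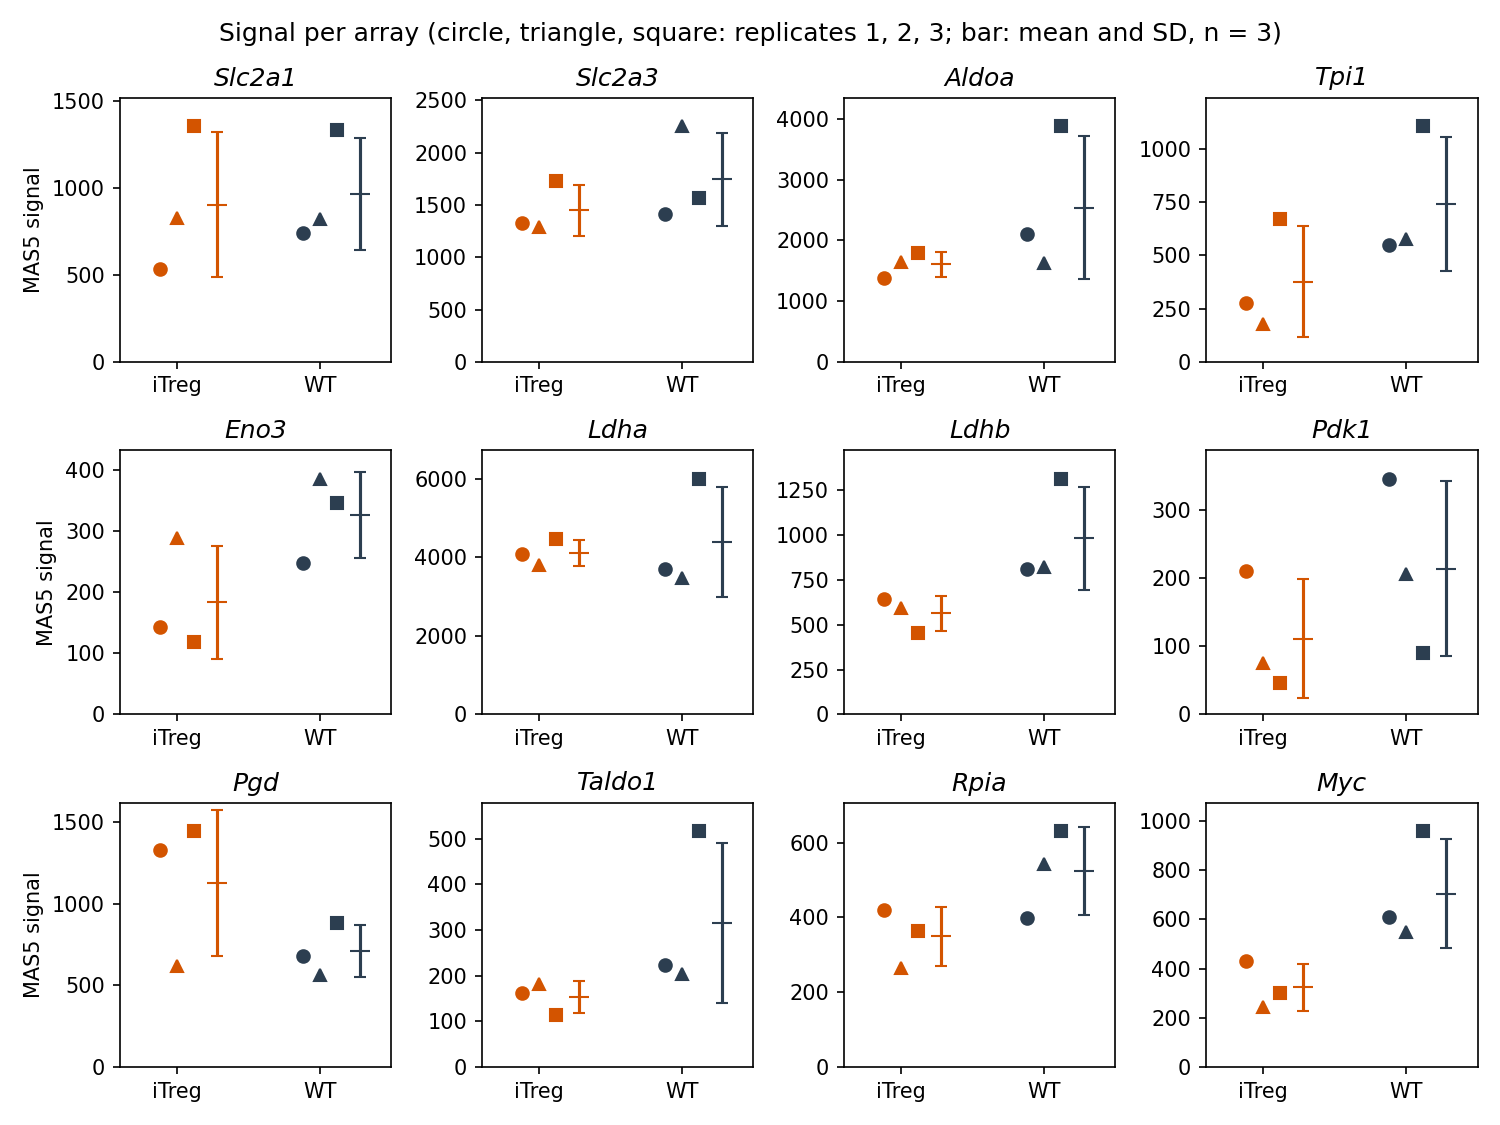
MAS5 signal (linear y axis from 0) of 12 genes on each array, iTreg in orange and WT Treg in dark blue; circles, triangles and squares are replicates 1, 2 and 3, and bars give the mean and SD (n = 3). Myc, Ldhb and Taldo1 do not overlap between the groups. Slc2a1 covers nearly the same range in both groups, and the 3 iTreg signals of Ldha lie within its WT range.

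Lower glycolysis, with the fate of pyruvate and lactate, held 12 tested genes with a median difference of -0.34, 10 of them negative and 2 positive. The median was -0.11 without WT replicate 3, which held the highest signal for 6 of the 12. Gapdh, the glyceraldehyde 3-phosphate dehydrogenase, was read by control probe sets along the transcript. At the 3′ end it gave 3419, 3739 and 7792 in iTreg against 4667, 3489.9 and 6262 in WT Treg. Both replicate 3 arrays were the highest of their group, and the difference was -0.01 (95% interval -0.77 to 0.75). In the middle of the transcript the difference was -0.30 and at the 5′ end -0.59. The log2 ratio of 3′ to 5′ signal, a measure of RNA integrity, was 3.06, 2.48 and 3.38 in iTreg against 2.28, 2.53 and 2.34 in WT Treg (exact permutation test over the 6 arrays, two-sided, p = 0.2, adjusted p = 0.8 over 4 quality measures, smallest possible 0.1). The same ratio for Actb had means of 0.21 in iTreg and 0.24 in WT Treg. Whether integrity bears on the differences given here was not tested.

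**Figure D4:**
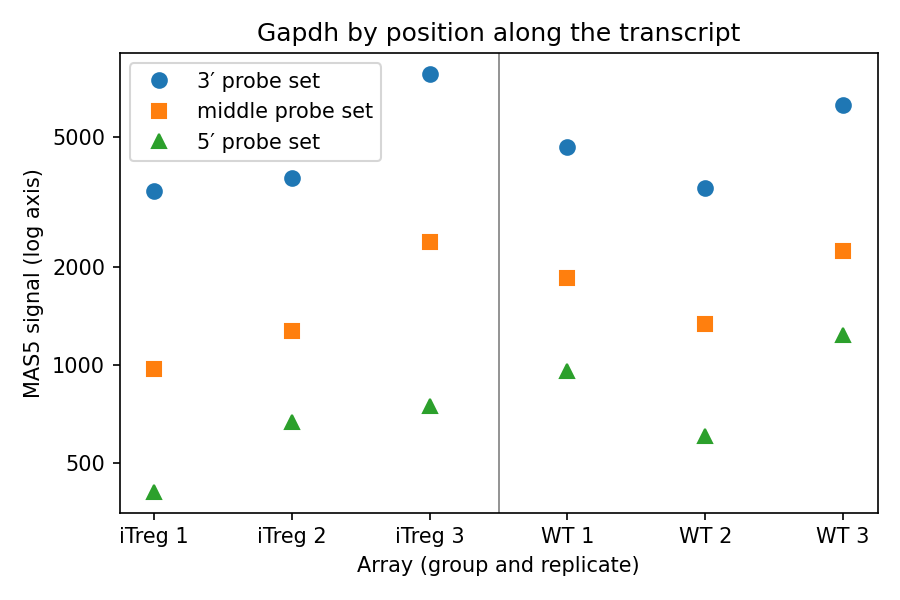
MAS5 signal (log y axis) of the Gapdh control probe sets at the 3′ end, in the middle and at the 5′ end of the transcript, on each of the 6 arrays. The 3′ signal of iTreg replicate 3 (7792) is the highest of all, while its 5′ signal lies below those of WT replicates 1 and 3.

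Pgk1 and Pgam1, the phosphoglycerate kinase and mutase, differed by -0.27 and -0.30. WT replicate 3 was the highest array for both, with 2258 for Pgk1 and 2178 for Pgam1, where the other 5 arrays of Pgam1 lay between 1128 and 1314. Eno3, the muscle type of enolase, had signals of 144, 289 and 118 in iTreg against 249, 386 and 346 in WT Treg. Replicate 2 was the highest in both groups, and iTreg replicate 2 lay above WT replicate 1. The difference was -0.85 with a standard error of 0.39 (limma unadjusted p = 0.0489, adjusted p = 0.656), from -1.21 (without iTreg replicate 2) to -0.61 (without iTreg replicate 3). Pkm, the pyruvate kinase of proliferating and muscle cells, had 1111, 1103 and 2010.5 in iTreg against 1234, 1109 and 1545 in WT Treg, a difference of 0.07 (95% interval -0.59 to 0.74).

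Lactate dehydrogenase is a tetramer of A and B subunits, of which the A subunit (Ldha) is a classic target of Myc and HIF-1. Ldha had signals of 4078, 3808 and 4462 in iTreg against 3702, 3471 and 6003 in WT Treg. All iTreg arrays lay between the WT arrays, and the difference was -0.05 (95% interval -0.66 to 0.56). Ldhb had signals of 643, 595 and 453 in iTreg against 809, 820.0 and 1313 in WT Treg, means of 564 ± 98.5 and 981 ± 288 (SD, n = 3). Every iTreg array was below every WT array. The difference was -0.76 with a standard error of 0.30 (limma unadjusted p = 0.0264, adjusted p = 0.613). Its other 3 probe sets gave -0.93, -0.81 and -0.73, and on each of them the groups did not overlap either. All Ldhb probe sets have a suffix for several transcripts or genes, so they may not be separate readings. The difference of Ldhb was -0.53 without WT replicate 3 (limma unadjusted p = 0.122) and -0.39 without both replicate 3 arrays.

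Within each array, the log2 signal of Ldhb minus that of Ldha was -2.64, -2.65 and -3.25 in iTreg against -2.17, -2.06 and -2.18 in WT Treg. The groups did not overlap, and the balance differed by -0.71 (exact permutation test, two-sided, p = 0.1, the smallest that 3 against 3 arrays allow, adjusted p = 0.7 over 7 pairs). Of the 7 pairs of related genes compared in this way, this was the one without overlap. For GLUT3 against GLUT1 the balance differed by -0.11, for Hk2 against Hk1 by -0.30, for Pfkm and Pfkp against Pfkl by 0.97 and 0.67, and for Pdk2 against Pdk1 by 1.53, each with overlapping groups. For Slc16a3 against Slc16a1 it differed by 0.08.

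The promoters of the lactate dehydrogenase pair and of Tpi1 are shown because they set Ldha, with a difference near 0, beside genes at the low end of the list in iTreg. The sequences are those of RefSeq (GRCm38.p6), from 250 bases before to 50 after the annotated start, 5′ to 3′ on the gene's strand. Capitals mark CACGTG, the E-box that Myc and Max bind, and ACGTG and GCGTG, the cores of the sites that HIF-1 binds, on either strand; each CACGTG also contains ACGTG. The first listed of 2 Ldha promoters lies at chr7:46845554-46845853 on the plus strand, that of Ldhb at chr6:142507908-142508207 on the minus strand, and that of Tpi1 at chr6:124814109-124814408 on the minus strand.
Ldha: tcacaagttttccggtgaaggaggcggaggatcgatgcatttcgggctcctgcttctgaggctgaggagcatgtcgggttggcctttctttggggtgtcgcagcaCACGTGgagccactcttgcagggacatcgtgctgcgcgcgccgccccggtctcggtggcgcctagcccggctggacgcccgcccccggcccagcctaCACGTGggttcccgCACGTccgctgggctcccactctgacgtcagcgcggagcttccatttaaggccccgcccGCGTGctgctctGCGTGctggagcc
Ldhb: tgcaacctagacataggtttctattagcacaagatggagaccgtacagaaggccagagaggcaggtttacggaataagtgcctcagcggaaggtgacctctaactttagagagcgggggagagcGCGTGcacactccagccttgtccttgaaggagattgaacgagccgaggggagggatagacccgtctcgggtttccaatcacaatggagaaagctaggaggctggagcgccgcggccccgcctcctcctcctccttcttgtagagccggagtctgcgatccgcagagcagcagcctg
Tpi1: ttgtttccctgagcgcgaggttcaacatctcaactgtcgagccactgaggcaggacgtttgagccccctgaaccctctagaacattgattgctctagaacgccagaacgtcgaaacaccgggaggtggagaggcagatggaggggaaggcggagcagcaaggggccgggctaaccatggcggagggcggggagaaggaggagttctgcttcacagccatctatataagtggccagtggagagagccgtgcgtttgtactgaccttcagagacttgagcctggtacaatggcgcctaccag

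The Ldha promoter held CACGTG at 2 places, ACGTG at 5 counted on both strands, of which each CACGTG gives 2, and GCGTG at 2, the Ldhb promoter GCGTG at 1 place, and the Tpi1 promoter none of these motifs in this window. The promoter of Eno3, also low in iTreg and not shown, held GCGTG at 1 place and neither of the other motifs. The promoters shown were picked for this contrast, and not all genes of the list followed it. Pkm and Mtor, with differences of 0.07 and -0.04, held none of the motifs, as did Aldoa at -0.57. Slc16a1, at -0.51, held each of them. Whether the motifs go with the differences was not tested. Promoters were matched for 29 of the 31 genes, the first listed where there were several. Myc and Slc2a3 had none in the promoter table. CACGTG was in 5 of the 29, or 17.2%, and in 7.15% of all 32851 promoters of the table. ACGTG was in 13, or 44.8%, against 19.6%, and GCGTG in 17, or 58.6%, against 32.4%. The 32851 count every promoter of a gene with several, and base composition was not matched, so these shares are not like for like. A match describes letters and is not a shown binding site.

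The mitochondrial gate for pyruvate is the pyruvate dehydrogenase complex, which the kinases Pdk1 and Pdk2 switch off. Pdk1 had signals of 211, 76.2 and 46.3 in iTreg against 346, 206 and 89.9 in WT Treg, a difference of -0.90 (standard error 0.56, limma adjusted p = 0.748). Replicates spread widely in both groups, and the difference was -0.49 without WT replicate 1. Its other probe sets above the filter gave 0.31, -0.10 and -0.08. Pdk2 ranged from 50.7 to 314 in iTreg and from 49.6 to 128 in WT Treg, a difference of 0.62 (95% interval -0.61 to 1.86). It was 0.12 without iTreg replicate 3 and 1.27 without iTreg replicate 2. Pdha1, the catalytic alpha subunit of the complex, had 682, 559 and 445 in iTreg against 657, 724 and 812 in WT Treg, a difference of -0.39. Its groups overlapped through iTreg replicate 1. Slc16a1 and Slc16a3 encode the lactate carriers MCT1 and MCT4. Slc16a1 differed by -0.51 with signals from 90.0 to 272 in iTreg and from 170.5 to 406 in WT Treg, and by -0.11 without iTreg replicate 2. Slc16a3, the carrier of highly glycolytic cells, was dim, with 19.8, 17.6 and 22.4 in iTreg against 41.9, 38.3 and 20.0 in WT Treg. All its iTreg signals and that of WT replicate 3 were within the range of unspiked controls.

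The pentose phosphate pathway held 5 tested genes that pointed both ways, with a median difference of 0.18, 3 positive and 2 negative. Without iTreg replicate 2 the median was 0.79, and without iTreg replicate 3 it was -0.44. Of the oxidative branch, Pgd, which makes NADPH from 6-phosphogluconate, had signals of 1326, 616 and 1443 in iTreg against 679, 566 and 884 in WT Treg. Replicates 1 and 3 of iTreg were above every WT array and replicate 2 was within the WT range. The difference was 0.59 (standard error 0.35, limma adjusted p = 0.74), and 0.97 without iTreg replicate 2. It was 0.56, 0.54 and -0.06 on its other probe sets. All Pgd probe sets have a suffix for several transcripts or genes. Pgls, the lactonase of the step before, differed by 0.46, with 138, 79.5 and 243 in iTreg against 94.6, 108 and 91.4 in WT Treg. Here too iTreg replicates 1 and 3 lay above all WT arrays and replicate 2 below them, and the difference was 0.092 without iTreg replicate 3.

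In the non-oxidative branch, which trades sugars between this pathway and glycolysis, Taldo1 and Rpia had negative differences. Transaldolase, Taldo1, had signals of 163, 182 and 115 in iTreg against 223, 204 and 516 in WT Treg, without overlap. The difference was -0.87 with a standard error of 0.41 (limma unadjusted p = 0.0566, adjusted p = 0.674). WT replicate 3 set much of its size: without that array the difference was -0.46, and -0.29 without both replicate 3 arrays. Rpia, the ribose 5-phosphate isomerase, had 419.6, 264 and 364 in iTreg against 399, 542 and 630.1 in WT Treg, a difference of -0.56 (standard error 0.32, limma adjusted p = 0.721). Tkt, transketolase, varied most within a group, with 2418, 1052 and 5897 in iTreg against 1571, 1772 and 3698 in WT Treg. Its difference was 0.18 (95% interval -0.96 to 1.32), and -0.13 on its other probe set above the filter.

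Among the regulators, Myc had the smallest p of all 30 genes. Its signals were 429, 243 and 300.2 in iTreg against 608, 547 and 958 in WT Treg, means of 324 ± 95.4 and 705 ± 222 (SD, n = 3). The groups did not overlap, and the highest iTreg array stayed below the lowest WT array. The difference was -1.08 with a standard error of 0.33 (limma unadjusted p = 0.00725, adjusted p = 0.46), from a single probe set. It was -0.84 without WT replicate 3 and -1.37 without the 2 arrays with label doubts. Its unadjusted p was under 0.05 in all 17 alternatives that gave it a value, and the lowest adjusted p among them was 0.37 (limma). Hif1a, the oxygen-regulated subunit of HIF-1, had 1073, 636 and 922 in iTreg against 986, 738 and 969 in WT Treg. Replicate 2 was the lowest of both groups, and the difference was -0.05 (standard error 0.29, limma adjusted p = 0.979). Mtor had 228, 334 and 240.4 against 220.0, 206 and 441, a difference of -0.04 (standard error 0.37, limma adjusted p = 0.987). Levels of Hif1a and mTOR as proteins or their activity are not measured by these arrays.

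Other genes of the pathways were counted by lists of names chosen for their roles, with earlier results of these data known. The medians and counts of these lists were taken over all 6 arrays only. None of these genes passed the test over all genes. Of 18 listed Myc-dependent genes of ribosome production and nucleotide or polyamine synthesis, 17 were tested; their median was -0.37 and 14 were negative, against a median of -0.03 and 52.8% negative over all genes. At an unadjusted p under 0.05, 3 were lower and 1 higher, against 4.58% and 3% of all genes. In 6 of the 17 the groups did not overlap, all lower in iTreg, against 7.78% of all genes lower and 5.1% higher. Polr1b, a subunit of RNA polymerase I, had signals of 25.8, 1.15 and 3.58 in iTreg against 55.1, 65.7 and 96.4 in WT Treg, a difference of -1.85 (limma adjusted p = 0.191). All its iTreg signals were within the range of unspiked controls, and the difference was -3.48 with an added constant of 1 and -0.88 with 64. Cad, which starts pyrimidine synthesis, had 65.4, 41.4 and 33.95 against 125, 174 and 162, a difference of -1.45 (limma adjusted p = 0.348), and -0.85 and -0.63 on its other probe sets. Gnl3, nucleostemin, had a positive difference of 0.97, with iTreg replicate 1 below every WT array; it was 0.50 without iTreg replicate 3.

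Of 12 tested genes that HIF-1 is known to drive outside the list of members, 3 were lower at an unadjusted p under 0.05 and 0 higher, against 4.58% and 3% of all genes, and the median was -0.34 against -0.03. Ndrg1, a stress-responsive gene that hypoxia induces and Myc represses, had signals of 324, 167 and 204 in iTreg against 634, 959 and 1492 in WT Treg. The difference was -2.04 (standard error 0.37, limma adjusted p = 0.0997), and from -1.51 to -0.59 on its other probe sets above the filter. Bnip3, a mitophagy receptor, had 63.9, 8.65 and 17.0 against 92.2, 139 and 111, a difference of -1.68 (limma adjusted p = 0.385). Its iTreg replicates 2 and 3 were within the range of unspiked controls, and the difference ran from -2.34 to -0.96 over the alternatives. Bhlhe40, a repressor of the clock, differed by -1.14 with overlapping groups.

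The remaining glycolytic and linked sugar enzymes, 17 tested, had a median of 0.15, with 2 lower at an unadjusted p under 0.05 and 0 higher, against 4.58% and 3% of all genes. Those 2 were the phosphoglucomutase Pgm1 at -1.505, and Galm, the mutarotase that turns the sugar ring form, at -1.06. Pgm1 gave -0.35 on its other probe set and -0.92 without WT replicate 2. Galm gave -0.76 and -0.25 on its other probe sets. Pgam2, the muscle mutase, differed by -0.78. Of 12 other genes of pyruvate handling 0 were past that level in either direction, with a median of -0.22; Dld (-0.53), Pdp2 (-0.70) and Bsg (-0.41), the partner protein of the lactate carriers, had the smallest p. Of 9 other pentose and ribose phosphate genes 1 was lower at that level and 0 higher, again beside 4.58% and 3%, namely the phosphoribosyl pyrophosphate synthetase Prps2 at -0.70, and -0.45 without iTreg replicate 3. Prps1 differed by -0.49 and H6pd by 0.54.

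Of 27 other genes of the mTOR, HIF-1 and Myc circuits, 3 had an unadjusted p under 0.05 with lower and 1 with higher values, against 4.58% and 3% of all genes, and the median was -0.20. Arrdc4, an arrestin that promotes removal of glucose transporters and is induced by glucose, had 84.7, 175 and 7.34 in iTreg against 396, 178 and 181 in WT Treg, a difference of -1.71. It was -0.94 on its other probe set and -0.86 without iTreg replicate 3. The scaffold of mTOR complex 1, Rptor, differed by -1.06 with overlapping groups, and by -0.42 and -0.72 on its other probe sets. Mlxip, a glucose-sensing factor that pairs with Mlx, was higher in all iTreg arrays, with 503, 517 and 403 against 301, 358 and 148, a difference of 0.86 (limma adjusted p = 0.626), and 0.50 without WT replicate 3. Of 17 tested genes of the dividing cell, 0 were past that level in either direction and the median was -0.01. Pcna, Cdc20 and Ccnb2 had the smallest p there, with differences of -0.51, 0.94 and 0.68, and other probe sets of Cdc20 gave 0.36 and -0.17.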

How the data were processed

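One MAS5 signal per probe set was deposited, an intensity on a linear scale; MAS5 is named in the submitters' processing notes, and its version and any genome build are not given in the sources used here. Per the labels' protocols, Trizol served for RNA extraction and biotin for labelling. All arrays had the same 2% trimmed mean, 150.0, and so had been scaled by the authors. Of 45101 probe sets, 34948 with 1 gene symbol were used, the 3 control probe sets of Gapdh among them; 932 had several symbols and 9211 none. Symbols were updated through RefSeq gene IDs.

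Signals were transformed as log2(signal + 16), so log2 differences understate changes of dim genes. The probe set with the highest mean was kept, which left 18194 genes, and the 10916 at or above the 40th percentile of the mean (4.99) were tested with limma 3.58.1 in R 4.3.3 (lmFit, eBayes with intensity trend, two-sided, Benjamini-Hochberg over all genes tested), as iTreg minus WT Treg, checked on simulated data. Quality measures and isoenzyme balances had exact permutation tests. Full statistics are given for the 3 genes with the smallest p of each part, and up to 3 genes are named of each further list. Members and lists were chosen with earlier results of these data known. The number of arrays limits the precision. Alternatives were other added constants, normalizations, filters, variance models and probe set rules, the replicate number as a block, and arrays left out.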

Additional observations from a re-analysis of the deposited data

How the results depend on the processing

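None of the 30 genes was called under any of the 18 alternatives. The count of all genes called, 3, became 0 with an added constant of 1, with no filter, without the 2 arrays with label doubts and with both replicate 3 arrays left out, 8 with a common median, and 0 to 1 without single arrays. The 4 genes of the list lower at an unadjusted p under 0.05 became 1 with a common median, against 2.81% of all genes. They became 2 without the arrays with label doubts or both replicate 3 arrays, against 3% and 3.48% of all genes. Without single arrays they were 2 to 5, against 3.22% to 6.45% of all genes. With specific probe sets only the count was 1, against 4.6% of all genes. In that setting Myc, Ldhb and Tpi1 had no such probe set and were not fitted. Those higher were 0 to 2 over the alternatives. The 2 were Pdk2 and Pgd without iTreg replicate 2, where 446 of all genes tested were higher. Scaling to a common median gave 307 genes lower and 360 higher at that level over all genes, against 500 and 328. Without single arrays the medians ran from -0.43 to -0.11 for lower glycolysis, from -0.44 to 0.79 for the pentose phosphate genes, from -0.35 to -0.01 for upper glycolysis and from -0.23 to 0.01 for the regulators. The cause of these moves was not tested.

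Of the 30 genes 17 kept their sign in every alternative that could be fitted, and 13, near 0 for the most part, did not. With a common median Gapdh was at 0.079, Ldha at 0.039, Hif1a at 0.035 and Mtor at 0.037, and Mtor was at 0.012 after quantile normalization. With the mean of probe sets Hk1 was at -0.082, Pfkp at -0.10 and Tkt at -0.050. With specific probe sets only, Slc2a1 was at 0.030, Pfkl at 0.081, Tkt at -0.13 and Cdc20 at -0.17. Without the arrays with label doubts Slc2a1 was at 0.015, Gapdh at 0.21 and Tkt at -0.036. With both replicate 3 arrays left out Pfkm was at -0.37, Pfkp at -0.062, Pkm at -0.079, Ldha at 0.14, Tkt at -0.063, Mtor at 0.35 and H6pd at -0.045. Without single arrays the range was -0.48 to 0.18 for Slc2a1, -0.57 to 0.38 for Hk2, -0.027 to 0.93 for Pfkm, -0.073 to 0.30 for Pfkp, -0.19 to 0.26 for Pfkfb3, -0.38 to 0.21 for Gapdh, -0.21 to 0.22 for Pkm, -0.20 to 0.20 for Ldha, -0.44 to 0.79 for Tkt, -0.21 to 0.16 for Hif1a and -0.23 to 0.29 for Mtor.

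Deviations of same-numbered arrays from their group means correlated at 0.17, 0.05 and 0.13 over genes for replicates 1, 2 and 3. The highest correlations with an array of another number were -0.06, 0.05 and 0.01. Deviations within a group cancel, so a higher value for a given pair lowers the others, and these correlations are not independent. Whether the replicate numbers pair the arrays was not tested. With the replicate number as a block, 3 genes were called over all genes, 0 of the 30 passed, 5 of them were lower at an unadjusted p under 0.05, against 5.33% of all genes in that fit (582 lower and 432 higher), and the differences were those of the unblocked fit. The filter and probe set rules left some genes unfitted, so those have fewer values. Dim genes such as Slc16a3, Aldoc, Polr1b and Bnip3 lie near the unspiked controls, where signal limits what can be told.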
